A study of Mus musculus with 12 samples.

Results

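The genes described here encode the main factors and receptors through which heart vessels are built and kept: the growth factors Vegfa and Vegfb, their receptors Kdr and Flt1, the angiopoietins Angpt1 and Angpt2 with their receptor Tek (also called Tie2), the endothelial adhesion protein Pecam1, and apelin (Apln) with its receptor Aplnr. They were chosen by name, as 10 of the 19308 genes in the joint count table of the series. RNA of whole hearts was sequenced from C57BL/6 mice that had sham surgery or transverse aortic constriction (TAC), a suture around the aortic arch that loads the left ventricle with pressure, at 8 weeks of age, and hearts were taken 1 week later. WT mice were compared with F3-KO mice, in which CRISPR-Cas9 had removed Fabp3, the fatty acid binding protein of heart muscle, from every tissue and not from muscle cells alone. The 4 groups, WT sham, F3-KO sham, WT TAC and F3-KO TAC, held 3 hearts each.

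VEGF-A made by muscle and stromal cells acts on endothelial cells mainly through Kdr, while Flt1 binds both VEGF-A and VEGF-B and can act as a decoy. Angpt1, made by mural and other non-endothelial cells, activates Tek and keeps vessels quiet and tight, and Angpt2, released by activated endothelium, can oppose it. Apelin comes largely from sprouting endothelial cells and acts through a G protein-coupled receptor that endothelial cells carry. In a pressure-loaded heart, capillary growth normally accompanies growth of the muscle, and endothelial cells also carry the fatty acids that Fabp3 takes up in muscle cells.

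Total estimated counts per heart lay between 10424334 and 14372011, and all 10 genes passed the filter on low counts that left 14094 genes to test. Fabp3 was at 1002 to 1143 CPM (estimated counts scaled to library size, TMM-normalized) in the 6 F3-KO hearts and at 2117 to 3064 in the 6 WT hearts, so its transcript was reduced but still counted. The paper's evidence for the knockout is at the protein level, where it reports complete loss of cardiac FABP3 by western blot. The load genes Acta1 and Nppb followed the surgery labels: Acta1 was 762 to 3566 CPM in TAC hearts against 44.9 to 753 in sham hearts, and Nppb 411 to 776 against 95.0 to 311. The other listed load genes, named after their values were seen, overlapped between surgeries. Nppa was 143 to 3841 CPM in TAC hearts against 37.1 to 339 in sham hearts. Myh7 was 174 to 23126 against 290 to 9179, and Ankrd1 1303 to 5170 against 688 to 1430. Of the 184 genes tested on the lists of pathways and cell types, edgeR called only Acta1 and Nppb as changed after TAC with both genotypes averaged, higher by 3.36 (SE 0.48) and 1.86 (SE 0.20) on the log2 scale, with adjusted p = 0.0248 and 0.0105. At an unadjusted p under 0.05 in edgeR, 50 of the 184 were higher and 10 lower. This threshold passed 18.6% of the pathway genes and 44.2% of the marker genes, beside 17.8% of all genes. DESeq2, which called 619 of all genes, called 9 pathway genes and 25 marker genes, among them 8 of 10 macrophage, 5 of 10 fibroblast and 8 of 10 cell division genes. Hearts of one group were not alike. The summed level of 10 cell division genes was 30.0 to 317 CPM in 4 TAC hearts but 3.91 in WT TAC replicate 3 and 5.01 in F3-KO TAC replicate 3, and WT sham replicate 2 had the highest fibroblast and macrophage sums of the 6 sham hearts. Leaving out F3-KO TAC replicate 3 raised the number of genes called between F3-KO TAC and F3-KO sham hearts from 0 to 774. Fold changes of the 10 genes moved with this and with other single hearts, and the lowest and highest values without 1 heart stand beside each fold change given in the text on a gene that moved by over 1.5 times. Cdh5, which encodes the cadherin of endothelial junctions, was at 183 to 442 CPM, and the sum of the 16 endothelial markers that are not among the 10 genes was 1048 to 1890 CPM.

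**Figure D1:**
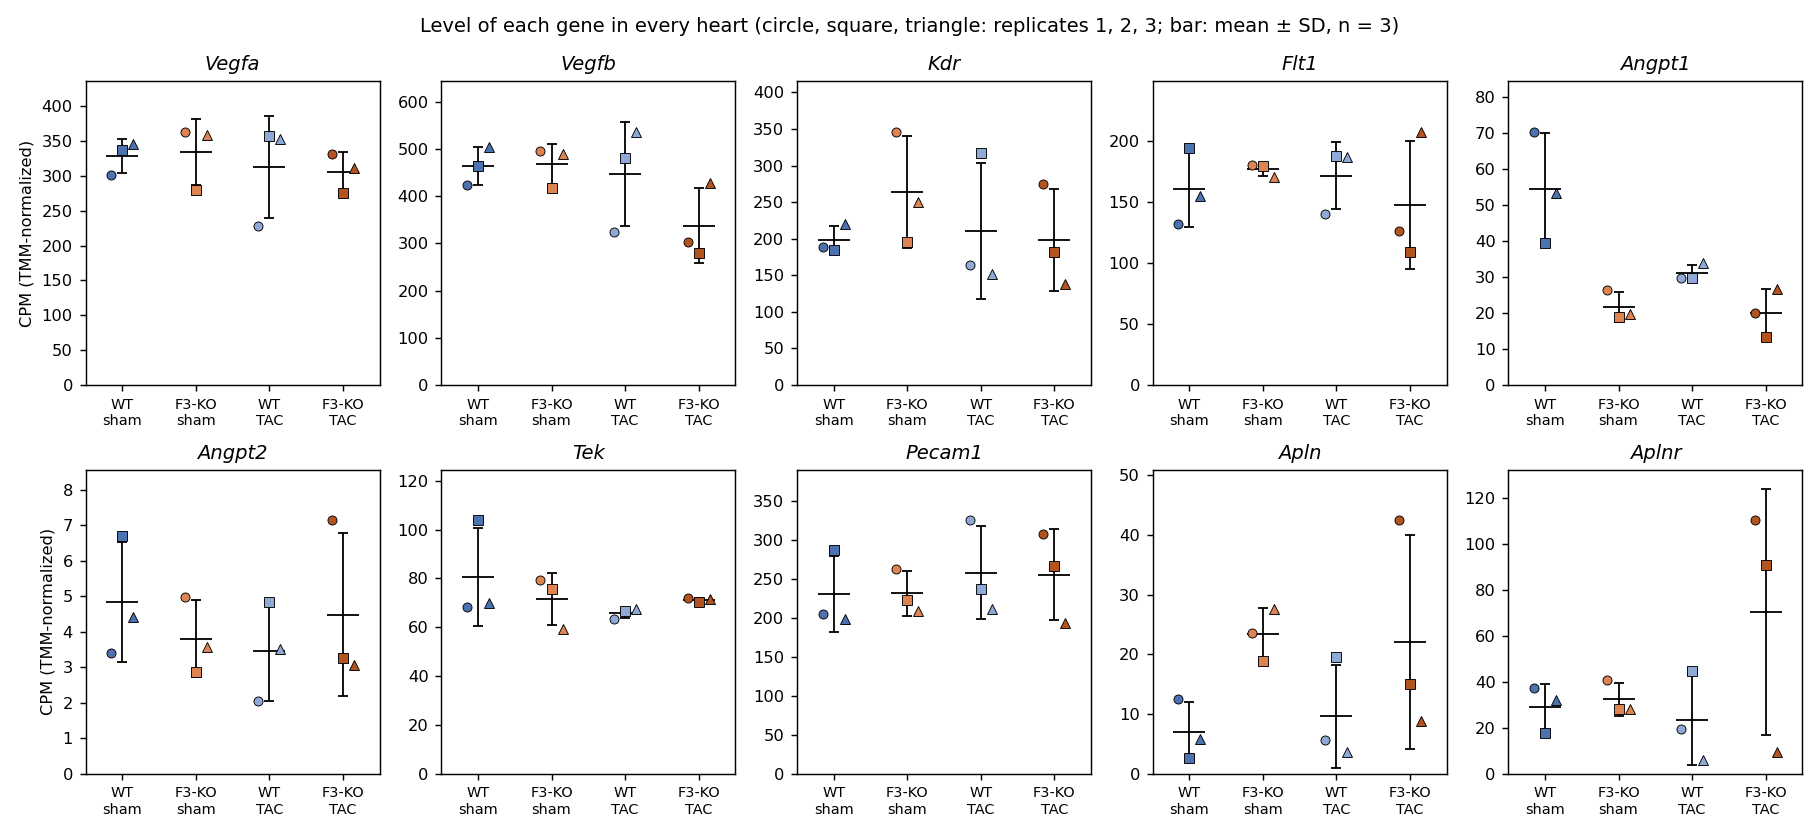
CPM (TMM-normalized, linear axis from 0) of each of the 10 genes in every heart, by group, with a symbol per replicate and the mean ± SD of 3 hearts. Angpt1 lay at 13.3 to 26.6 CPM in the F3-KO hearts and at 29.6 to 70.3 CPM in the WT hearts, while Apln and Aplnr spread widely within groups.

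Per kilobase of exon (union of the exons in GENCODE vM21), the levels in WT sham hearts were ordered as follows. Vegfb was the highest at 289 ± 24.8 CPM per kb (SD, n = 3), followed by Vegfa at 76.6 ± 5.65 and Pecam1 at 37.0 ± 7.87. Kdr at 21.9 ± 2.14 and Tek at 17.1 ± 4.26 had overlapping ranges, as did Flt1 at 11.9 ± 2.33 with Angpt1 at 10.4 ± 2.97, and Angpt1 with Aplnr at 7.83 ± 2.72. Apln at 2.22 ± 1.60 and Angpt2 at 1.31 ± 0.457 were the lowest, and their ranges overlapped too. With the longest transcript in place of the exon union, Tek and Flt1 changed places in this order. Vegfa and Vegfb thus stood above Kdr and Flt1 per length, and Tek above both of its ligands.

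Sequence upstream of the start site was matched in RefSeq (GRCm38.p6) for 6 of the 10 genes, Vegfa with 2 start sites. The 250 bases before the start sites of Kdr and Apln are shown because these genes varied together between hearts, as described with Aplnr. Kdr lies on the minus strand, at chr5:75978456-75978705, and Apln on the minus strand, at chrX:48034854-48035103, each written 5′ to 3′ toward the start site. Capitals mark matches to CCGGAA or its reverse complement, a motif of the ETS factors that act in endothelium, or to ACGTG or its reverse complement, a core of the hypoxia response element.
Kdr: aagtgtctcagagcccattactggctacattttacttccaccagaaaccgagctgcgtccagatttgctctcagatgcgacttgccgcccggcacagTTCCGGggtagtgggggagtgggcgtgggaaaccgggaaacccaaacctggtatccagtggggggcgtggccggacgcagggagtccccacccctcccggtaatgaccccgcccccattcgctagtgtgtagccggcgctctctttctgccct
Apln: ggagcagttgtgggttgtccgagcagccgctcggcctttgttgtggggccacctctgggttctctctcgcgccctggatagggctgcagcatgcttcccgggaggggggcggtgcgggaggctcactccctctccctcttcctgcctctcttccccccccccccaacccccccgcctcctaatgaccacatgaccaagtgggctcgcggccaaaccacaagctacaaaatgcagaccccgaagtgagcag
CCGGAA occurred on either strand in 12.03% of 32851 upstream windows of this length and ACGTG in 16.6%. The motifs can share an end base, but no window of these genes holds both. The Kdr window holds 1 match to CCGGAA, beginning 153 bases before the start site, and the Apln window holds no match to either motif. Of the other windows, that of the second Vegfa start site holds 1 match to ACGTG, and those of the first Vegfa start site, Vegfb, Flt1 and Tek hold neither motif. A match describes these letters only.

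The question put to all 10 genes was whether pressure overload or the loss of Fabp3 shifted them. In the comparison of TAC with sham, genotypes averaged, the quasi-likelihood test of edgeR, adjusted over all genes tested, called 0 of the 10 (0.078% of all genes), and 1, Angpt1, was lower at an unadjusted p under 0.05 (17.8% of all genes passed in either direction). No gene among them kept the 6 TAC hearts apart from the 6 sham hearts (0.837% of all genes did). Within WT hearts, TAC against sham gave 0 called (0% of all genes) and 1 at an unadjusted p under 0.05 (6.28% of all genes), Angpt1 again. Within F3-KO hearts it also gave 0 called (0% of all genes) and 1 at the unadjusted threshold (17.1% of all genes), which was Vegfb. Groups did not overlap for Angpt1 and Tek in the WT comparison (2 of 10, against 9.1% of all genes) and for none of the 10 in the F3-KO comparison, although 22.9% of all genes were apart there. Without F3-KO TAC replicate 3, still 0 of the 10 were called, whereas 5.49% of all genes were called within F3-KO hearts and 6.23% with genotypes averaged.

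F3-KO against WT gave 0 of 10 called in sham hearts (0.106% of all genes) and 0 in TAC hearts (0.078%). At an unadjusted p under 0.05 there were 2 in sham hearts, Apln higher and Angpt1 lower (6.02% of all genes passed), and 1 in TAC hearts, Angpt1 lower (10% of all genes passed). In sham hearts the groups were apart for those same genes, Apln and Angpt1 (13.7% of all genes were apart), and in TAC hearts for Angpt1, lower, and Tek, higher (11.4% of all genes). The difference between the genotypes' responses to TAC, the interaction, was called by edgeR for 0 of the 10 (0% of all genes), with 0 of the 10 at an unadjusted p under 0.05 (4.48% of all genes). DESeq2 called 1 of the 10 in sham hearts, Angpt1, and 0 in each of the 3 comparisons of TAC with sham, in F3-KO against WT TAC hearts and in the interaction. Limma called 0 in these 6 comparisons. After these values had been seen, the genotype difference was also averaged over sham and TAC hearts. It called 1 of the 10, Angpt1, as lower in F3-KO hearts (0.412% of all genes called), with Angpt1 and Apln below an unadjusted p of 0.05 (10.1% of all genes). Angpt1 was also the only one of the 10 that kept all 6 F3-KO hearts apart from all 6 WT hearts (0.639% of all genes did).

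**Figure D2:**
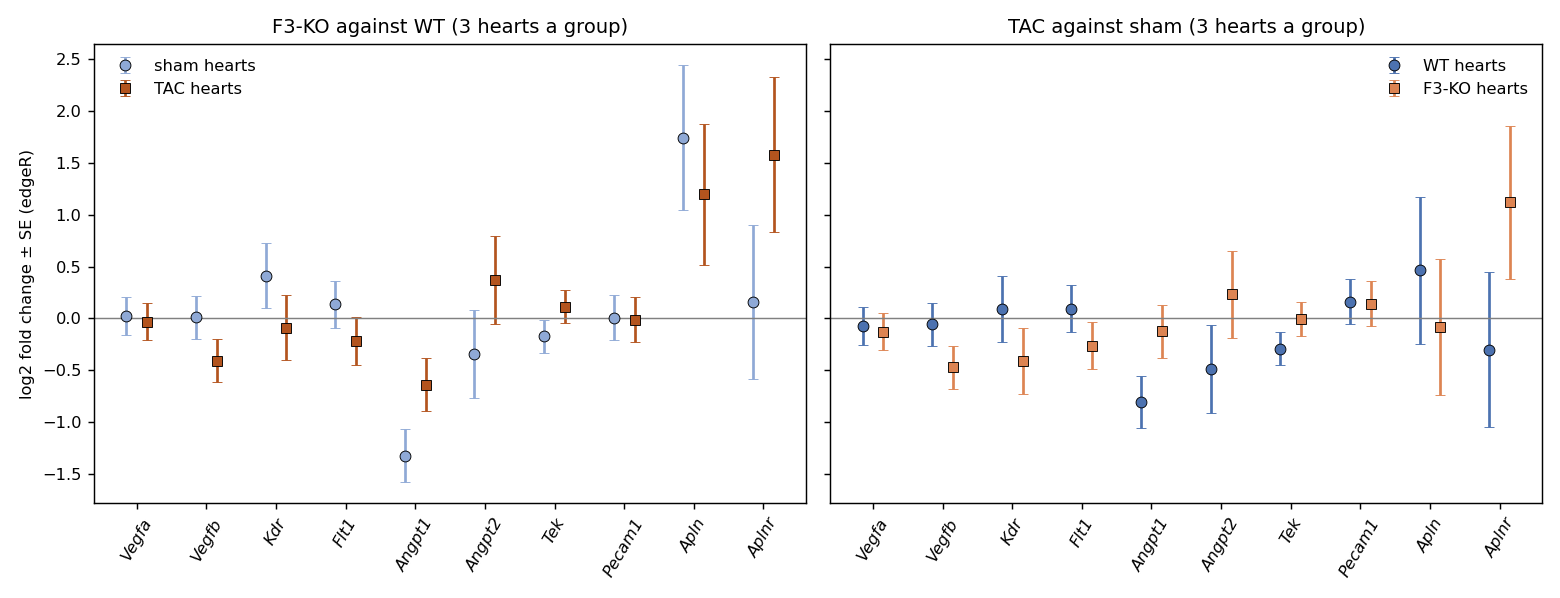
Log2 fold change ± SE from edgeR of each gene, F3-KO against WT on the left (circles sham, squares TAC) and TAC against sham on the right (circles WT, squares F3-KO). Angpt1 lay below 0 by more than its SE in 3 of the 4 comparisons, and Apln and Aplnr carried the widest errors, 0.66 to 0.75.

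Angpt1, the ligand that activates Tek, set the genotypes apart most clearly. Its levels were 70.3, 39.4 and 53.3 CPM in WT sham hearts and 26.4, 18.9 and 19.7 CPM in F3-KO sham hearts. After TAC they were 29.7, 29.6 and 33.8 CPM in WT hearts and 20.0, 13.3 and 26.6 CPM in F3-KO hearts. Every F3-KO heart was thus below every WT heart, and among WT hearts every TAC heart was below every sham heart. In sham hearts F3-KO against WT gave a log2 fold change of -1.33 (SE 0.26), with adjusted p = 0.0932 in edgeR (unadjusted 0.000232), which missed the threshold. DESeq2 gave adjusted p = 0.000644 for this difference, and edgeR without F3-KO TAC replicate 2 gave 0.0436. In TAC hearts the difference was -0.64 (SE 0.26, edgeR adjusted p = 0.474), and it ran from -0.90 without F3-KO TAC replicate 3 to -0.42 without F3-KO TAC replicate 2. In WT hearts TAC against sham gave -0.81 (SE 0.25, edgeR adjusted p = 0.782), and the interaction of 0.68 (SE 0.36) had adjusted p = 0.954 in edgeR and ran from 0.42 without F3-KO TAC replicate 3 to 0.91 without F3-KO TAC replicate 2. In bulk hearts, fewer cells of a type and less of this RNA in each cell cannot be told apart.

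With surgeries averaged, Angpt1 was lower in F3-KO hearts, with a log2 fold change of -0.98 (SE 0.18), with adjusted p = 0.0405 in edgeR, lower in 6 of 6 F3-KO hearts than in any WT heart. This call was close to the threshold. It was kept without F3-KO TAC replicate 3 (adjusted p = 0.0134, edgeR) and without WT sham replicate 2 (0.0273), but without any one of the other 10 hearts the edgeR adjusted p was 0.0583 to 0.140, with log2 fold changes of -1.07 to -0.87. It was also lost when libraries were scaled to endothelial markers, where the log2 fold change was -1.03 (SE 0.25, adjusted p = 0.137, edgeR). The summed markers of pericytes and smooth muscle cells and those of fibroblasts overlapped between genotypes under either surgery. The pericyte and smooth muscle markers, all 12 of which were detected, summed to 1231 to 1566 CPM in WT sham and 1346 to 1482 in F3-KO sham hearts. After TAC they summed to 1133 to 1317 CPM in WT hearts and 1166 to 1675 in F3-KO hearts. Rgs5 and Abcc9 made up most of this sum, at 469 and 448 CPM in WT sham replicate 1. The median log2 fold change of these 12 genes with surgeries averaged was 0.08, beside 0.005 for all genes tested. At an unadjusted p under 0.05 in edgeR, 1 of the 12 was higher in F3-KO hearts and 0 lower. Single markers could differ: Vtn, named after its values were seen, was 16.3 to 28.1 CPM in WT sham and 34.5 to 40.7 in F3-KO sham hearts. Fibroblast markers, all 10 detected, summed to 1662 to 3251 CPM in WT sham hearts, 2295 to 2876 in F3-KO sham hearts, 2642 to 4247 in WT TAC hearts and 3013 to 8603 in F3-KO TAC hearts, and their median difference between genotypes was 0.59, higher in F3-KO hearts, with 2 of 10 at an unadjusted p under 0.05. The part of these or other cell types in the Angpt1 difference was not tested.

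Set against the mean log2 CPM of the 16 endothelial markers, Angpt1 averaged -0.20 ± 0.61 (SD, n = 3) in WT sham hearts, -1.56 ± 0.04 in F3-KO sham hearts, -0.98 ± 0.37 in WT TAC hearts, and -1.75 ± 0.73 in TAC hearts of F3-KO mice. On this scale the sham groups stayed apart, while F3-KO TAC replicate 3 at -0.93 lay among the WT TAC hearts, which ran from -1.29 to -0.56. The genes whose log2 CPM followed Angpt1 most closely over the 12 hearts were Maob (r = 0.93), Klhl8 (r = 0.91) and Cd59a (r = 0.87). These correlations describe points that share the 4 groups, and the values for deviations from the group means were lower, 0.63, 0.77 and 0.73.

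Angpt2, the ligand released by activated endothelium, was scarce, with 26.4 to 93.7 estimated counts per heart. It was 3.40, 6.69 and 4.42 CPM in WT sham and 4.99, 2.85 and 3.57 CPM in F3-KO sham hearts. After TAC it was 2.04, 4.84 and 3.501 CPM in WT hearts and 7.13, 3.25 and 3.05 CPM in F3-KO hearts. All 4 groups overlapped, and at this depth no difference was detectable. The ratio of Angpt2 to Angpt1, which does not depend on how a library is scaled, averaged -3.49 ± 0.90 in WT sham hearts, -2.52 ± 0.17 in F3-KO sham hearts, -3.23 ± 0.62 in WT TAC hearts, and -2.20 ± 0.83 in TAC hearts of F3-KO mice as a log2 value (SD, n = 3). TAC against sham differed by 0.29 (6 against 6 hearts, two-sided exact permutation p = 0.556, adjusted p = 1 over 4 ratios). F3-KO against WT, compared after the Angpt1 values had been seen, differed by 1.004 (exact permutation p = 0.0216, adjusted p = 0.0866 over the 4 ratios), which missed the threshold after adjustment. Within sham and within TAC hearts that difference was 0.98 and 1.03, each with an exact permutation p = 0.2, where 3 against 3 hearts cannot go below 0.1.

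**Figure D3:**
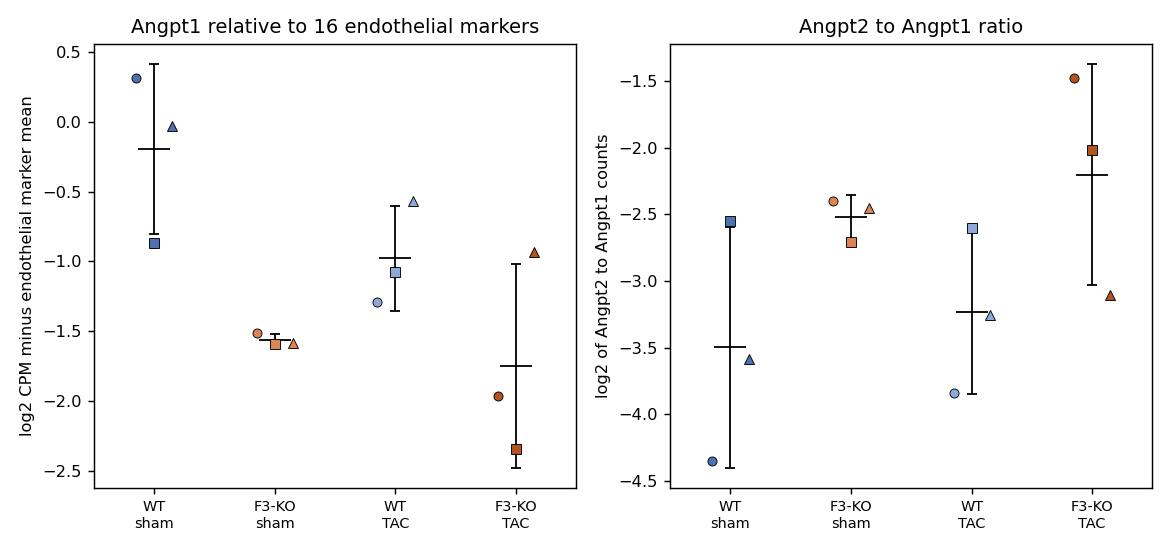
Left, log2 CPM of Angpt1 minus the mean log2 CPM of 16 endothelial markers. Right, log2 of the ratio of Angpt2 to Angpt1 counts. Each point is a heart and bars give the mean ± SD of 3 hearts per group. The F3-KO sham hearts, at -1.59 to -1.51 on the left, lie below the WT sham hearts, and the ratio averaged higher in F3-KO than in WT hearts under either surgery.

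Tek, the receptor that both angiopoietins bind, was the steadiest of the 10 genes. It was 68.1, 104 and 70.0 CPM in WT sham and 79.5, 75.6 and 59.3 CPM in F3-KO sham hearts. After TAC it was 63.5, 66.8 and 67.3 CPM in WT hearts and 72.02, 70.4 and 71.4 CPM in F3-KO hearts. The TAC groups had SDs of 2.03 and 0.80 CPM, and every F3-KO TAC heart was above every WT TAC heart, but the mean difference was 71.3 against 65.9 CPM, with an edgeR adjusted p = 0.820. WT TAC against WT sham gave -0.29 (SE 0.16, edgeR adjusted p = 0.802), where WT sham replicate 2 at 104 CPM stood well above the other hearts. Without that heart the difference was -0.068, and without WT sham replicate 1 it was -0.40. Its SD within groups was 0.205 on the log2 scale, beside a median of 0.186 over the 1922 genes with a level within 0.5 log2 of it. The closest genes in pattern were Pja1 (r = 0.98), Rbbp6 (r = 0.94) and Usp48 (r = 0.91) over 12 hearts.

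Of the other 8 genes listed for the angiopoietin and Tie pathway, 7 were tested and 0 were called in any comparison by edgeR, where DESeq2 called 1 for TAC against sham with genotypes averaged and 1 within F3-KO hearts. At an unadjusted p under 0.05, 2 of 7 were higher after TAC with genotypes averaged and none lower. They were Svep1, an extracellular matrix protein, at 1.01 (SE 0.26) and Angptl4, a secreted inhibitor of lipoprotein lipase, at 1.25 (SE 0.53), with edgeR adjusted p = 0.105 and 0.249. Both were chosen for naming after their values were seen. Angptl4 was 4.03 to 8.16 CPM in WT sham and 17.3 to 27.5 CPM in F3-KO sham hearts, which did not overlap. After TAC it was 43.0 CPM in WT replicate 1 and 8.19 CPM in WT replicate 2. WT TAC replicate 3 was below every sham heart. In F3-KO hearts Angptl4 was 20.2 to 50.5 CPM after TAC, which overlapped the F3-KO sham hearts. The median log2 fold change of the 7 was -0.03 for TAC against sham and 0.04 for F3-KO against WT with surgeries averaged.

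Vegfa, the principal growth factor of endothelial cells, differed little between groups. Its levels were 301, 338 and 346 CPM in WT sham and 363, 279 and 359 CPM in F3-KO sham hearts. They were 228, 357 and 352 CPM in WT TAC and 331, 275 and 311 CPM in F3-KO TAC hearts. Only WT TAC replicate 1 lay below all other hearts, and all 4 groups overlapped. The edgeR adjusted p was 0.723 to 1 in the 6 planned comparisons. Scnm1 (r = 0.92), Agpat5 (r = 0.90) and Cmc2 (r = 0.89) followed Vegfa most closely over the 12 hearts.

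Vegfb, which binds Flt1 and not Kdr, is highly expressed in heart muscle and has been tied to fatty acid uptake. It was 424, 463 and 504 CPM in WT sham and 496, 418 and 489 CPM in F3-KO sham hearts. After TAC it was 323, 480 and 536 CPM in WT hearts and 303, 280.1 and 428 CPM in F3-KO hearts. The F3-KO TAC group had the lowest mean, 337 ± 79.6 CPM (SD, n = 3), but its replicate 3 lay within the F3-KO sham range. TAC against sham in F3-KO hearts gave a log2 fold change of -0.47 (SE 0.21, unadjusted p = 0.0417 and adjusted p = 0.272, edgeR), and without F3-KO TAC replicate 3 it gave -0.68 (SE 0.20, adjusted p = 0.0685, edgeR). Without F3-KO TAC replicate 2 the same comparison gave -0.36, the smallest value without 1 heart. F3-KO against WT in TAC hearts gave -0.41 (SE 0.21, adjusted p = 0.528, edgeR), and ran from -0.62 (adjusted p = 0.153) without F3-KO TAC replicate 3 to -0.28 without WT TAC replicate 3. The interaction was -0.42 (SE 0.29, adjusted p = 0.954, edgeR), and leaving out the same hearts gave -0.63 and -0.30. Cardiomyocyte markers, all 11 detected, summed to 73206 to 95428 CPM in WT sham hearts, 95132 to 104503 in F3-KO sham hearts, 80352 to 109567 in WT TAC hearts, and 69571 to 81796 in TAC hearts of F3-KO mice. Their part in the Vegfb values was not tested. The genes nearest to Vegfb over the 12 hearts were Cox6a2 (r = 0.98), a muscle subunit of cytochrome c oxidase, Gstm7 (r = 0.98) and Ndufv1 (r = 0.98), a subunit of respiratory complex I.

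Flt1 followed Vegfb from heart to heart more than it followed Kdr. Its levels were 132, 194 and 155 CPM in WT sham and 179.9, 179 and 171 CPM in F3-KO sham hearts. After TAC they were 139.6, 188 and 187 CPM in WT hearts and 126, 109 and 207 CPM in F3-KO hearts. The F3-KO TAC group held both the lowest values and the highest one. TAC against sham in F3-KO hearts gave -0.26 (SE 0.23, adjusted p = 0.592, edgeR), and ran from -0.59 (SE 0.18, adjusted p = 0.0777, edgeR) without F3-KO TAC replicate 3 to -0.084 (adjusted p = 0.938) without F3-KO TAC replicate 2. With libraries scaled to the summed endothelial markers it was -0.12. Set against the mean log2 CPM of the 16 endothelial markers, the difference of group means was -0.34. Over the 12 hearts, deviations from the group means of Flt1 correlated with those of Vegfb at r = 0.80, with those of Kdr at r = -0.19 and with those of Aplnr at r = -0.71, given as descriptions. Gsn (r = 0.94), Cyp1a1 (r = 0.92) and Cops6 (r = 0.91) had the most similar pattern.

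Kdr, the main signalling receptor for VEGF-A, was 189, 184 and 220.0 CPM in WT sham and 346, 195 and 249.8 CPM in F3-KO sham hearts. After TAC it was 163, 318 and 151 CPM in WT hearts and 275, 182 and 138 CPM in F3-KO hearts. All 4 groups overlapped. F3-KO against WT in sham hearts gave 0.41 (SE 0.32, adjusted p = 0.998, edgeR), and TAC against sham in F3-KO hearts gave -0.41 (SE 0.32, adjusted p = 0.536, edgeR). The first ran from 0.17 without F3-KO sham replicate 1 to 0.60 without F3-KO sham replicate 2. The second ran from -0.72 (adjusted p = 0.410) without F3-KO TAC replicate 1 to -0.17 (adjusted p = 0.860) without F3-KO sham replicate 1. Itpkb (r = 0.96), Spry4 (r = 0.92), an inhibitor of receptor tyrosine kinase signalling, and Scarf1 (r = 0.91), a scavenger receptor of endothelial cells, were nearest to it.

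The log2 ratio of Kdr to Flt1 counts averaged 0.32 ± 0.34 in WT sham hearts, 0.54 ± 0.41 in F3-KO sham hearts, 0.23 ± 0.53 in WT TAC hearts, and 0.43 ± 0.90 in TAC hearts of F3-KO mice (SD, n = 3). TAC against sham differed by -0.10 (exact permutation p = 0.751, 6 against 6 hearts). The ratio of Vegfa to Flt1 was 0.98 in both surgeries on average, with an exact permutation p = 1. Both adjusted p were 1 over the 4 ratios. Among the 8 other genes listed for the VEGF family and its co-receptors, all tested, 0 were called in any comparison by edgeR or by DESeq2. At an unadjusted p under 0.05, 3 of 8 were higher after TAC in F3-KO hearts, Vegfd at 1.09 (SE 0.38), Flt4 at 0.46 (SE 0.18) and Sema3a at 0.75 (SE 0.34), named after their values were seen, with edgeR adjusted p = 0.202, 0.226 and 0.289, where 17.1% of all genes passed. Their list had a median log2 fold change of 0.34 in that comparison and 0.06 for TAC against sham in WT hearts, and the median over all genes tested was 0.02 and 0. Markers of lymphatic endothelium, which include Flt4, were higher at that threshold for 3 of 7 (median 0.70) after TAC in F3-KO hearts, and fibroblast markers for 5 of 10 (median 0.95). The part of these in the values of the list was not tested.

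Pecam1, an adhesion protein found on all endothelial cells, is used as a marker of endothelium, although its level alone does not measure how much endothelium a sample holds. It was 205, 287 and 199 CPM in WT sham and 263, 222 and 208 CPM in F3-KO sham hearts. After TAC it was 325, 236 and 211 CPM in WT hearts and 307, 266 and 193 CPM in F3-KO hearts. All 4 groups overlapped, with means of 230.2 to 257 CPM, and the edgeR adjusted p was 0.633 to 1 in the 6 planned comparisons. Relative to the other 16 endothelial markers, the group means of Pecam1 lay between 1.85 and 2.05 log2 units, with SDs of 0.03 to 0.12. The 16 markers gave 0 calls in any comparison by edgeR or by DESeq2, and 1 of them was higher at an unadjusted p under 0.05, after TAC in F3-KO hearts. Their median log2 fold change was 0.03 after TAC with genotypes averaged and 0.08 for F3-KO against WT with surgeries averaged. Icam2 (r = 0.95), an adhesion molecule of endothelial cells, S100a10 (r = 0.92) and S100a11 (r = 0.91) followed Pecam1 over the 12 hearts.

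Apln had the largest genotype difference of the 10 genes in sham hearts. Its levels were 12.5, 2.66 and 5.81 CPM in WT sham and 23.6, 18.9 and 27.6 CPM in F3-KO sham hearts. After TAC they were 5.65, 19.6 and 3.60 CPM in WT hearts and 42.4, 14.99 and 8.83 CPM in F3-KO hearts. The sham groups did not overlap, while the TAC groups did, since WT TAC replicate 2 was above F3-KO TAC replicates 2 and 3. In sham hearts F3-KO against WT gave 1.75 (SE 0.70) on the log2 scale, with unadjusted p = 0.0286 and adjusted p = 0.756 in edgeR, and in TAC hearts 1.198 (SE 0.68, adjusted p = 0.560, edgeR). The value in TAC hearts ran from 0.31 without F3-KO TAC replicate 1 to 2.24 without WT TAC replicate 2. Averaged over surgeries, the difference was 1.47 (SE 0.49, unadjusted p = 0.0109 and adjusted p = 0.312, edgeR), and 1.03 to 1.99 without single hearts. None of these passed the threshold. The F3-KO sham hearts were also above the WT sham hearts when Apln was set against the endothelial markers, at -1.45 ± 0.31 against -3.34 ± 1.27 log2 units (SD, n = 3).

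Aplnr, the apelin receptor, was 37.1, 17.7 and 32.1 CPM in WT sham and 40.6, 28.1 and 28.2 CPM in F3-KO sham hearts. After TAC it was 19.6, 44.8 and 5.90 CPM in WT hearts and 110.2, 90.9 and 9.40 CPM in F3-KO hearts. F3-KO TAC replicates 1 and 2 had the highest levels of all 12 hearts, and F3-KO TAC replicate 3 and WT TAC replicate 3 the lowest. F3-KO against WT in TAC hearts gave 1.58 (SE 0.75, unadjusted p = 0.0569 and adjusted p = 0.512, edgeR), and without F3-KO TAC replicate 3 it gave 2.09 (SE 0.55, adjusted p = 0.0932, edgeR). Over all single hearts left out it ran from 1.10 (adjusted p = 0.789) without WT TAC replicate 3 to 2.44 (adjusted p = 0.655) without WT TAC replicate 2. TAC against sham in F3-KO hearts gave 1.12 (SE 0.74, adjusted p = 0.461, edgeR), and ran from 0.64 (adjusted p = 0.788) without F3-KO TAC replicate 1 to 1.64 (SE 0.55, adjusted p = 0.0926) without F3-KO TAC replicate 3. Limma gave 0.52 for it. The interaction was 1.42 (SE 1.05, adjusted p = 0.954, edgeR), and ran from 0.93 without WT TAC replicate 3 to 2.29 without WT TAC replicate 2. The 2 hearts with low Aplnr were also the TAC hearts with the low sums of cell division genes given above and with the lowest endothelial sums, 1048 and 1056 CPM. They also had the highest sums of the 5 load genes among TAC hearts, 25004 and 29004 CPM. The other TAC hearts ran from 3805 to 23226 CPM, the last in F3-KO TAC replicate 2, where Aplnr was high. Myh7, which overlapped between surgeries, made up most of the 2 highest sums, at 21580 and 23126 CPM. Acta1, Nppa, Nppb and Ankrd1 each had their highest value in another TAC heart. The part of these sums in the Aplnr values was not tested.

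The log2 ratio of Apln to Aplnr counts averaged -2.24 ± 0.60 in WT sham hearts, -0.46 ± 0.38 in F3-KO sham hearts, -1.23 ± 0.54 in WT TAC hearts, and -1.36 ± 1.25 in TAC hearts of F3-KO mice (SD, n = 3). The sham groups differed by 1.78 and did not overlap, with an exact permutation p = 0.1, the smallest that 3 against 3 hearts allow. TAC against sham differed by 0.06 (6 against 6 hearts, exact permutation p = 0.913, adjusted p = 1 over the 4 ratios). F3-KO against WT over both surgeries differed by 0.83 (exact permutation p = 0.130, adjusted p = 0.260 over the 4 ratios).

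Apln and Aplnr were among the most variable genes of their level. The SD of Aplnr within groups was 1.26 on the log2 scale, higher than 99.9% of the 2655 genes within 0.5 log2 of its level, and that of Apln was 1.01, higher than 99.2% of 2036 such genes. The median over all genes tested was 0.251. Kdr, with an SD of 0.443, moved with them: over the 12 hearts, deviations from the group means correlated at r = 0.80 between Apln and Aplnr, at r = 0.76 between Kdr and Apln and at r = 0.76 between Kdr and Aplnr. WT TAC replicate 2 and F3-KO TAC replicate 1 were above the mean of their group for all 3 genes, and WT TAC replicate 3 and F3-KO TAC replicate 3 below it for all 3. These correlations share libraries and are descriptions. The genes nearest to Apln over the 12 hearts were Afap1l1 (r = 0.96), Dctd (r = 0.92) and 4930452B06Rik (r = 0.91), and those nearest to Aplnr were Nrep (r = 0.97), Xxylt1 (r = 0.95) and Vopp1 (r = 0.95).

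**Figure D4:**
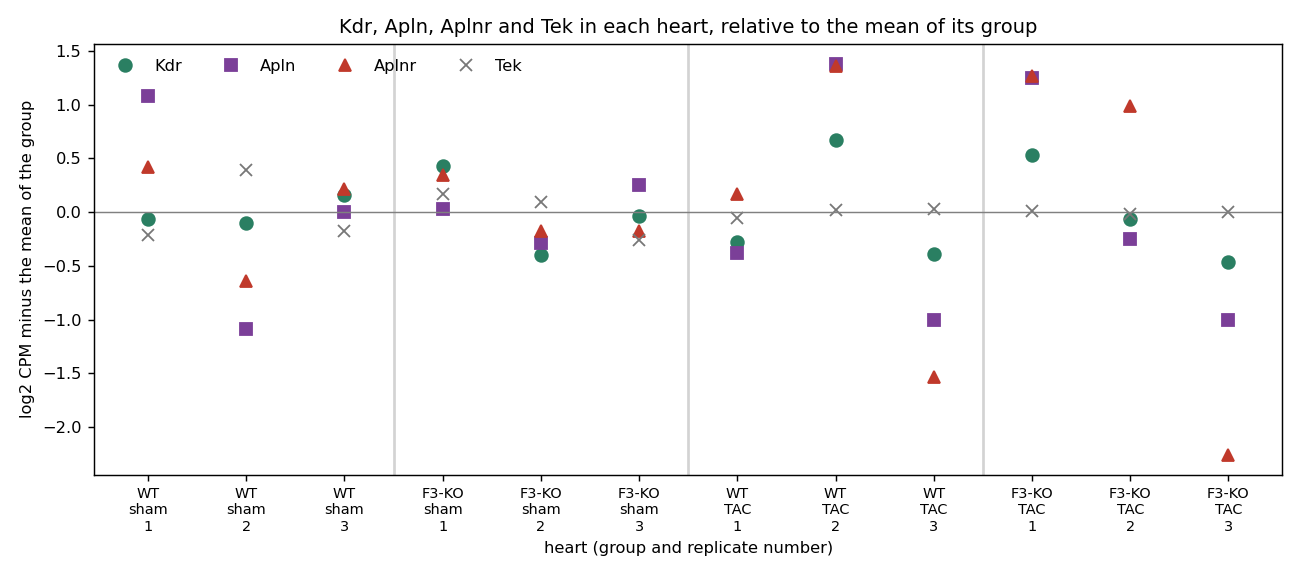
Log2 CPM of Kdr, Apln, Aplnr and Tek in each heart minus the mean of its group, with groups divided by vertical lines. In the TAC hearts Apln spans -1.005 to 1.38 and Aplnr -2.26 to 1.36, Kdr lies on the same side of 0 as both in 4 of these 6 hearts, and Tek stays between -0.05 and 0.03.

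The other genes of vessel growth were counted from lists drawn up for this tissue. Over the 9 pathway lists, 97 genes were tested and edgeR called 0 in each of the 6 planned comparisons and in the averaged genotype difference, where DESeq2 called 9 for TAC against sham with genotypes averaged, 1 in WT, 6 in F3-KO hearts, 1 for F3-KO against WT in sham, 1 in TAC, 0 for the interaction and 2 for the averaged genotype difference. At an unadjusted p under 0.05 in edgeR, 14 of the 97 were higher and 4 lower after TAC with genotypes averaged, 18.6% against 17.8% of all genes. For F3-KO against WT it was 5 higher and 1 lower in sham hearts, 6.19% against 6.02%, and 5 higher and 5 lower in TAC hearts, 10.3% against 10%.

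Of the secreted factors other than VEGF and the angiopoietins, 9 of 15 tested were higher and 2 lower after TAC at an unadjusted p under 0.05, with a median log2 fold change of 0.65, beside 0.004 for all genes. EdgeR called 0 of the 15, DESeq2 called 6 and edgeR with the replicate block called 1, Adamts1. Markers of macrophages (9 of 10 higher at that threshold, median 0.75) and fibroblasts (7 of 10, median 0.80) moved with them, and their part in these values was not tested. Named after their values were seen, Adamts1, a protease that restrains vessel growth, was at 0.65 (SE 0.12, adjusted p = 0.0652, edgeR) and 0.64 with the block (adjusted p = 0.0498), Thbs1, an inhibitor of angiogenesis, at 1.74 (SE 0.41, adjusted p = 0.104) and Fgf1, a growth factor, at -0.38 (SE 0.10, adjusted p = 0.114). In WT hearts Adamts1 was 36.9 to 47.0 CPM after sham and 84.9 to 106 after TAC. In F3-KO hearts it was 59.7 to 78.7 and 66.2 to 96.1, which overlapped. Thbs1 was 4.66 to 7.97 and 12.6 to 14.9 CPM in WT hearts, and 10.7 to 14.5 and 9.90 to 97.4 in F3-KO hearts. Fgf1 was 258 to 301 and 216 to 292 CPM in WT hearts, which overlapped, and 266 to 326 and 174 to 201 in F3-KO hearts. The Notch list (13 tested) had 0 higher and 0 lower with a median of -0.04, the tip cell list (9 tested) 0 and 0 with 0.10, and the endothelial transcription factors (16 tested) 0 higher and 1 lower, Klf2, with -0.08. Hypoxia-inducible factors and their targets (21 tested) had 2 higher and 1 lower with a median of 0.05, and the list of endothelial fatty acid and lipoprotein transport (9 tested) 0 and 0 with -0.01.

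Between genotypes, surgeries averaged, the lists were counted at the same unadjusted threshold, which 12.4% of the 97 pathway genes and 10.1% of all genes passed. The secreted factors had 2 higher, 0 lower and a median of 0.09, the VEGF family list 1 higher, 1 lower and 0.13, and the angiopoietin and Tie list 2 higher and 0 lower. Notch genes had 0 higher and 1 lower with a median of 0.08, tip cell genes 1 higher and 0 lower with 0.16, and hypoxia genes 1 higher and 2 lower with -0.06. Lmo2, a transcription cofactor of endothelial and blood cells and the only endothelial transcription factor below that threshold, was named after its value was seen: it was 30.8 to 36.2 CPM in WT hearts and 36.9 to 53.4 CPM in F3-KO hearts, with a difference of 0.46 (SE 0.09, adjusted p = 0.0561, edgeR). Fatty acid and lipoprotein transport genes of endothelium had 0 higher and 0 lower with a median of -0.11.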

How the data were processed

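Hearts were assigned to groups from their labels, 3 per group. The authors deposited estimated counts per gene, unnormalized, of which 40.6% of values were not whole numbers. Per the methods and the submitters' processing notes, reads were cleaned with SOAPnuke and mapped with HISAT2 2.0.4 and STAR 2.3.0. The notes also name mm8 and mm9 with no role. The counting tool, its use of strand and the build used are not given in the sources used here, so reads shared with overlapping genes cannot be told apart and no gene coordinates are taken from the files. The joint table was used. It equalled the tables of 11 single hearts, and that of WT sham replicate 2 breaks off after 134 genes. Per-sample columns left unmapped numbered 0.

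Counts were rounded, filtered with filterByExpr (minimum count 10), scaled by TMM (factors 0.931 to 1.09) and fitted with edgeR 4.0.16 in R 4.3.3 as 4 group means with 8 residual degrees of freedom. The test was the quasi-likelihood test with Benjamini-Hochberg adjustment over 14094 genes, called below 0.05. DESeq2 1.42.0 and limma 3.58.1 were alternatives, along with other scalings and filters, a replicate block and leaving out each heart. CPM are TMM-normalized, and sums of markers are scaled to the library total alone. Log2 CPM used a prior count of 2. Ratios used counts plus 0.5 and two-sided exact permutation tests. The fits were tested on simulated data. The p-values weigh differences between groups against the spread between hearts. The study calls the hearts biological replicates without naming litters or days, so a litter or day shared within a group cannot be told apart from the group. Counting error weighs most on Angpt2 and Apln, with as few as 26.4 and 29.0 counts in a heart.

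The genes, the lists and the comparisons were chosen with earlier results of these data known. Genes were named by a rule: the 10 genes, Fabp3, list genes past the threshold (up to 3 per list after TAC and up to 2 for each genotype comparison) and, for each of the 10, the 3 genes with the highest Pearson r over 12 hearts. Others were named after their values were seen, as stated beside them. Fold changes smaller than their own SE are not reported, a rule set after the values and their changes of sign under the alternatives had been seen. The result of 1 short pathway list is not reported here.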

Additional observations from a re-analysis of the deposited data

How the results depend on the processing

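With genes called at adjusted p under 0.05, the count among the 10 stayed at 0 for TAC against sham (genotypes averaged, in WT and in F3-KO hearts), for F3-KO against WT in TAC hearts and for the interaction under each other scaling, filter and tool and without any single heart. For F3-KO against WT in sham hearts it was 0, but 1 with DESeq2 and 1 at an adjusted p under 0.1, and 0 to 1 without single hearts. For the genotype difference averaged over surgeries, added after the values were seen, it was 1, but 0 when scaled to endothelial markers (the log2 fold change of Angpt1 was -1.03 there) and 0 to 1 without single hearts. At an unadjusted p under 0.05 edgeR gave 1 for each of the 3 comparisons of TAC with sham, 2 for F3-KO against WT in sham, 1 in TAC and 2 averaged, and DESeq2, added after the values were seen, gave 1, 1, 1, 2, 2 and 2. With the replicate block the counts were 0, 0, 0, 0, 0, 0 and 1, as without it, and the block changed no call among the 10. Among the listed genes it added Adamts1 for TAC with genotypes averaged (adjusted p = 0.0498, edgeR) and Nppb for TAC in WT hearts (0.0381). Of the other genes named by the rule, Acta1 lost its call under the replicate block (adjusted p = 0.0519, edgeR) and without WT sham replicate 1 or 3 or F3-KO sham replicate 1 or 3 (0.0821 to 0.123), and Nppb without F3-KO sham replicate 3 (0.0543). Same-numbered hearts correlated at -0.141 to 0.362 in 18 pairs, 4 of them above 0.1, and 6 of 12 hearts were closest to their own number, so the numbers were not taken to pair the samples.

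Log2 ratios, TAC against sham, without single hearts ran from 0.02 to 0.51 for Angpt2 to Angpt1, from -0.26 to 0.08 for Kdr to Flt1, from -0.084 to 0.078 for Vegfa to Flt1 and from -0.21 to 0.32 for Apln to Aplnr, and none passed the test. The cause of the sign changes was not tested. Of the 29 fold changes of the 10 genes that were at least their own SE, 1 changed sign: Tek in F3-KO against WT sham hearts was -0.17, and -0.28 to 0.050 without single hearts, above 0 only without WT sham replicate 2. Scaling by library totals alone moved the median of all genes to 0.12 for TAC against sham in F3-KO hearts and to 0.12 for F3-KO against WT in TAC hearts, and to 0.16 for the interaction. Counts of all genes called by edgeR and by DESeq2 were 11 and 619 for TAC with genotypes averaged, 0 and 26 in WT and 0 and 446 in F3-KO hearts, 15 and 102 for F3-KO against WT in sham, 11 and 96 in TAC and 58 and 217 averaged, and 0 and 6 for the interaction.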
